A study of Lens culinaris with 50 samples.

Results

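The step of the lentil seed coat (Lens culinaris) from the torpedo to the early bent stage of the embryo was analysed across all genes. It was chosen by the labels for tissue and stage, which give 2 seed coat libraries at early bent and 2 at torpedo, 4 of the 50 libraries of the series. The series holds RNA-seq of hand-dissected embryo and seed coat and of whole seed at 8 stages, from zygote to mature, and of the unfertilized ovule, with 2 libraries in each of 25 groups. Every library came from the cultivar CDC Gold, flowers were emasculated and pollinated by hand to obtain the seeds, and the labels name no agent and no altered allele in any group. Seed coat at early bent and seed coat at torpedo thus differ in stage. The seed coat is what was left of the seed after the embryo had been taken out by hand. Any endosperm left in this part was not measured, so the changes below are those of the part as dissected. The labels give neither the age of the seeds in days nor the number of seeds or plants in a library.

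The seed coat grows from the integuments of the ovule and is maternal tissue, while the embryo and the endosperm come from fertilization. In legumes it conducts sucrose and amino acids from the mother plant to the embryo, which has no vascular connection of its own. It later builds thick-walled outer layers and, in many species, stores flavonoids such as proanthocyanidins. The torpedo stage follows the heart stage, and at the bent stages the growing cotyledons fold over and fill the seed. Which of these functions the genes below serve could not be read, because the deposited table pairs none of its 58243 identifiers with a name or product. The tissue label could therefore not be checked with known marker genes either, and lists drawn from other stages of the same data were used in their place.

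A gene was called with a Benjamini-Hochberg adjusted p under 0.05 by limma and a fold of at least 2. In addition, both libraries of the higher group had to lie above both of the lower group and to hold at least 10 normalized reads. The spread behind each p and SE was taken over all 25 groups, not from the compared libraries alone. The agreement of both replicates was asked for because replicate 2 of each group detects many genes that replicate 1 lacks. At early bent, 10661 genes were at 0 in replicate 1 and above 0 in replicate 2, and 98.6% of them had fewer than 10 normalized reads there. At torpedo there were 8708 such genes, 99.8% of them under 10 normalized reads, and 3746 genes were in both lists. Of the 10661, 21 were among the genes that fell and 0 among those that rose. Of the 8708, 10 were among the genes that rose and 0 among those that fell. Both counts of 0 follow from the rule of at least 10 normalized reads in both libraries of the higher group. The 2 lists were drawn from all 58243 genes, of which 29440 were tested. The early bent libraries held 23860977 and 22972416 reads, and the torpedo libraries 25088042 and 22109439 reads.

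The torpedo seed coat libraries resembled each other less than any other pair of replicates in the series. Over 15825 genes with a mean of at least 100 normalized reads, the correlation of log2 values between replicates was 0.955 at early bent and 0.856 at torpedo. The next lowest of the 25 groups, whole seed at heart, had 0.923. These correlations run over genes of 2 libraries, not over independent samples, and only describe them. Torpedo replicate 1 was closer to the whole seed libraries at torpedo (0.933 and 0.953) and to early bent replicate 1 (0.922) than to its own replicate. Torpedo replicate 2 was closer to the mature seed coat libraries (0.682 and 0.683) than torpedo replicate 1 was (0.566 and 0.571). The highest correlations of torpedo replicate 2 were with its own replicate (0.856) and with whole seed at torpedo and heart. These whole seed values were 0.776 and 0.828 at torpedo and 0.795 and 0.801 at heart. Results are therefore given with and without torpedo replicate 2. In the fit without it, the remaining torpedo library is taken to vary as the other groups do.

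Between torpedo and early bent, 1123 genes rose in the seed coat, 3.81% of the 29440 tested, and 1008 fell, 3.42% of those tested. The genes that rose had a median fold of 4.59 (interquartile range 2.71 to 9.76), 632 of them changed more than 4-fold and 181 more than 16-fold. The genes that fell had a median fold of 5.07 (2.83 to 11.5), with 598 beyond 4-fold and 174 beyond 16-fold. The median log2 change of all tested genes was 0.12. In bulk tissue, more or fewer cells of a type and more or less RNA per cell cannot be told apart. Few genes were nearly silent on 1 side of the step: 6 rising genes had at most 3 reads in each torpedo library and at least 100 normalized reads in both early bent libraries, and 3 falling genes showed the opposite. A gap of at least 2-fold between the nearest libraries of the groups was seen for 620 of the rising genes (55.2%) and 558 of the falling genes (55.4%). The edgeR and DESeq2 tests on the recovered reads both called 930 of the rising and 965 of the falling genes as well.

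The counts depended on single libraries. Without torpedo replicate 2, 415 genes rose and 248 fell, 1.41% and 0.842% of those tested, and 386 and 196 of these were in the lists from all libraries. Without torpedo replicate 1, 2401 genes rose and 2244 fell. Without early bent replicate 2 the counts were 418 and 480, and without early bent replicate 1 they were 1137 and 767. Of the genes called with all libraries, 272 rose and 159 fell in each of these 4 fits, and these are called the steady genes here. The median fold was 16.4 for the steady rising genes and 19.4 for the steady falling genes. A call in all 4 fits favours large folds, so these medians are a description.

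**Figure D1:**
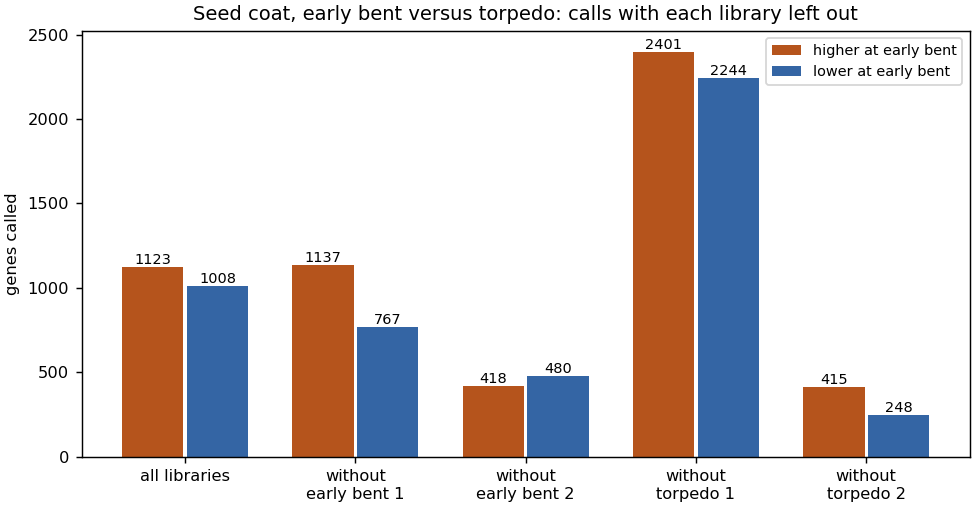
Number of genes called higher (orange) and lower (blue) in seed coat at early bent than at torpedo, with all libraries and with each of the 4 libraries left out in turn. The counts are highest without torpedo replicate 1 (2401 and 2244) and lowest for falling genes without torpedo replicate 2 (248).

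The genes that rose included many abundant transcripts of the early bent seed coat. Since the values of these 4 libraries chose the genes, their shares and medians there are a description. The rising genes held 14.1% and 23% of the normalized reads in the early bent libraries, against 6.94% and 3.20% in the torpedo libraries. The call rule itself puts the early bent values of each of these genes above the torpedo values. Torpedo replicate 2 has the lowest share. By the same measure per gene, the median of the rising genes was 508 and 832 normalized reads at early bent, against 183 and 79.3 at torpedo. Mean levels at early bent were under 100 normalized reads for 170 of the genes, between 100 and 1000 for 478, between 1000 and 10000 for 405 and at least 10000 for 70. Of the 100 most abundant genes of the early bent seed coat, 37 had risen and 0 had fallen, against 3.81% and 3.42% of all tested genes. Ranking by the early bent level favours rising genes, so these counts are a description too. Early bent replicate 2 gave the higher value for 936 of the 1123 genes (83.3%), by a median ratio of 1.54 to replicate 1.

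The genes that fell had uneven levels in the torpedo libraries. They held 1.26% and 1.02% of the normalized reads at early bent, against 3.05% and 12% at torpedo. The low and even values are those of early bent, while the torpedo replicates lie far apart. The median falling gene had 59.2 and 52.5 normalized reads at early bent, against 198 and 634 at torpedo. Torpedo replicate 2 gave the higher value for 946 of the 1008 genes (93.8%), with a median ratio of 3.39 to torpedo replicate 1. Early bent reads of falling genes showed little common shift between replicates. The median ratio of replicate 1 to replicate 2, on normalized reads plus 1, was 1.06. Differences in opposite directions cancel in this median, so it does not measure how far single genes differed. Of the 100 most abundant genes of the torpedo seed coat, 11 had fallen and 8 had risen, against 3.42% and 3.81% of all tested genes. Ranking by the torpedo level favours falling genes.

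**Figure D2:**
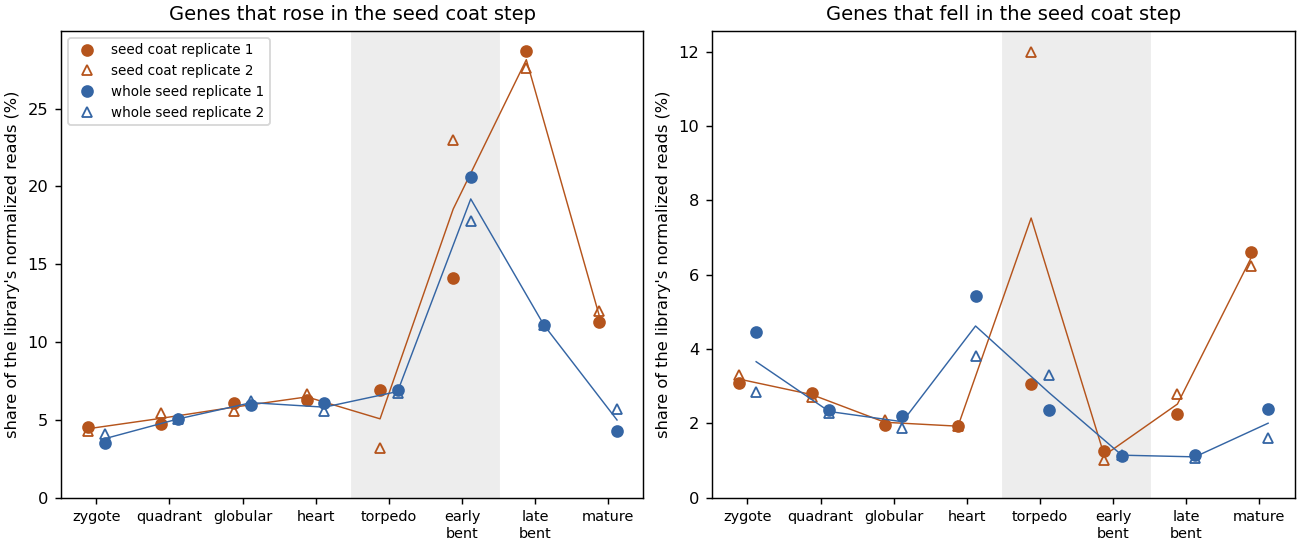
Share of each library's normalized reads held by the 1123 genes that rose (left) and the 1008 genes that fell (right) in the seed coat step, over 8 stages in seed coat (orange) and whole seed (blue). Filled circles are replicate 1, open triangles replicate 2, lines join the means of the 2 libraries, and the shaded stages chose the genes. For the falling genes the torpedo seed coat replicates lie at 3.05% and 12%, with 1.93% and 1.92% at heart.

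Whole seed at the same stages was sequenced from other libraries, and there the same step can be read without the seed coat samples. In whole seed, 993 genes rose and 1041 fell between torpedo and early bent, 3.37% and 3.54% of those tested. Of the 1123 genes that rose in seed coat, 533 also rose in whole seed, which is 47.5% of the seed coat list and 53.7% of the whole seed list, and 1 fell. Their median log2 change in whole seed was 1.43, and 1065 of them (94.8%) changed upward. Of the 1008 genes that fell in seed coat, 288 also fell in whole seed, 28.6% of the seed coat list and 27.7% of the whole seed list, and 8 rose. Their median log2 change in whole seed was -1.09, with 896 (88.9%) changing downward. Without whole seed early bent replicate 1 the whole seed counts were 471 and 350, without torpedo replicate 2 of whole seed 579 and 467, and 636 fell without its torpedo replicate 1.

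Of the 415 genes that rose without torpedo replicate 2, 341 (82.2%) rose in whole seed, and of the 248 that fell without it, 139 (56.0%) fell in whole seed. With early bent seed coat replicate 2 left out, 281 genes rose and 168 fell in both tissues, and with torpedo seed coat replicate 2 left out from both lists 345 and 155 did. Among the steady genes, 233 of 272 rising genes (85.7%) and 84 of 159 falling genes (52.8%) had the same call in whole seed. Of the 737 rising genes that lost their call without torpedo replicate 2, 209 (28.4%) rose in whole seed. The rising genes held a larger share of whole seed reads after the step as well, with 20.6% and 17.8% at early bent, against 6.92% and 6.73% at torpedo. For the falling genes the shares were 1.13% and 1.16% at early bent, against 2.36% and 3.31% at torpedo.

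The difference of the 2 steps was tested as an interaction in the same limma fit. The log2 change with its sign was higher in seed coat than in whole seed for 9 genes (0.0306%) and lower for 66 (0.224%). These genes had an adjusted p under 0.05 by limma and a difference of at least 1 on the log2 scale. A stronger fall in seed coat thus counts as lower. Of these 66 genes, 37 had fallen in seed coat and 37 had risen in whole seed, and their median log2 change was -1.70 in seed coat and 2.02 in whole seed. Of the 66, 53 were lower in seed coat than in embryo at late bent, as were 16.6% of all tested genes. The counts of 9 and 66 changed with the libraries and the scaling: without seed coat torpedo replicate 1 they were 1482 and 948, without torpedo replicate 2 they were 4 and 26, and under quantile scaling 35 and 159. Without early bent replicate 1 they were 5 and 42, and without early bent replicate 2 they were 32 and 81.

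**Figure D3:**
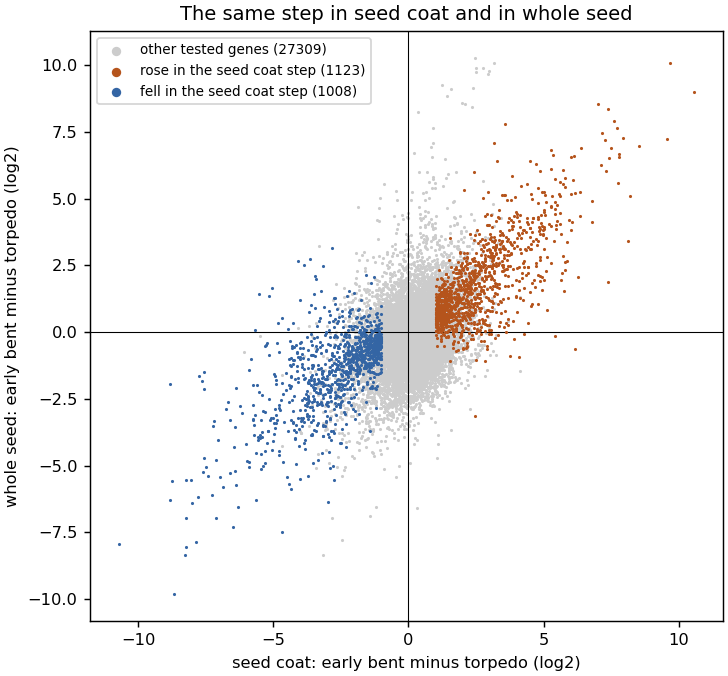
Log2 change between torpedo and early bent in seed coat (horizontal) and in whole seed (vertical) for 29440 genes, with the genes that rose in seed coat in orange and those that fell in blue. Of the orange genes 94.8% lie above 0 in whole seed, and of the blue genes 88.9% lie below 0.

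The embryo was dissected from seeds of the same stages. In embryo, 1032 genes rose and 939 fell, 3.51% and 3.19% of those tested, and with TMM scaling 778 and 1404. Without embryo early bent replicate 2 the counts were 545 and 449, and 588 or 603 genes fell without embryo torpedo replicate 1 or replicate 2. Of the genes that rose in seed coat, 132 (11.8%) rose in embryo and 54 (4.81%) fell, with a median log2 change in embryo of 0.25. Of the genes that fell in seed coat, 103 (10.2%) fell in embryo and 42 (4.17%) rose, with a median of -0.35. With TMM scaling, 95 genes rose in both tissues and 155 fell in both. The signed log2 changes were also compared as an interaction, in which a stronger fall in seed coat counts as a smaller change. By this test the seed coat step was greater than the embryo step for 890 genes (3.02%) and smaller for 832 (2.83%). The genes that rose in seed coat held 447 of the 890 and 8 of the 832, and those that fell held 352 of the 832 and 0 of the 890. The same seed coat libraries chose these genes, which favours such a split, so it is a description only. Over all genes, these interaction counts were 509 and 423 without seed coat torpedo replicate 2, 2053 and 1680 without seed coat torpedo replicate 1, and 441 and 584 without seed coat early bent replicate 2.

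The levels at other stages show where in seed coat development the rising genes stand. Late bent and heart lie on either side of the step and share no library with it. Between them, 609 (54.2%) of the genes that rose in the step rose and 137 (12.2%) fell, against 16.6% and 15.4% of all tested genes. Over all tested genes these were 4896 and 4526, and with TMM scaling 3887 and 5584, with 540 genes that rose both here and in the step. The median rising gene had 120, 138, 164, 178, 140, 698, 747 and 330 normalized reads over the 8 stages of seed coat, in order from zygote to mature, with torpedo the fifth and early bent the sixth. By the stage of the highest seed coat mean, 449 of the 1123 rising genes were at early bent, 442 (39.4%) at late bent and 131 (11.7%) at mature, where 15.6%, 13.5% and 29.5% of all tested genes were. A peak at early bent is favoured by the choice of the genes. In whole seed, 671 (59.8%) were highest at early bent, where 14.7% of all tested genes were. Their share of seed coat reads was 11.3% and 12% at the mature stage and 28.7% and 27.6% just before it, so the late bent libraries lie above all others.

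The rising genes were grouped by their calls at these other stages. The calls favour the courses of the group medians from heart to mature, so these courses are a description. The first group of 241 genes (21.5%, against 1.73% of all tested genes) rose between heart and late bent and fell between late bent and mature. Its median over the 8 stages was 61.0, 58.9, 51.6, 65.5, 80.3, 750, 2040 and 221 normalized reads, low through torpedo and then high for a limited time. In this group 185 genes (76.8%) also rose in whole seed, 140 (58.1%) kept their call without torpedo replicate 2, and 210 exceeded the embryo in the comparison of the tissues at late bent. Of all tested genes 18.7% exceeded the embryo there, and the choice of this group by a high late bent level favours that call. The second group of 368 genes (32.8%, against 14.9% of all tested genes) rose between heart and late bent and did not fall afterwards, with medians of 38.6 at heart, 67.2 at torpedo, 503 at early bent, 1328 at late bent and 936 when mature. Of these, 221 (60.1%) rose in whole seed and 149 (40.5%) kept their call without torpedo replicate 2.

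The third group of 137 rising genes (12.2%) was lower at late bent than at heart, a share below the 15.4% of all tested genes. Its median was 565 at heart, 338 at torpedo, 992 at early bent, 140 at late bent and 55.6 at mature. By library, the median was 803 and 1148 at early bent, against 500 and 143 at torpedo, so that torpedo replicate 1 stood near the heart level and torpedo replicate 2 well below it. In this group 23 genes (16.8%) rose in whole seed and 15 (10.9%) kept their call without torpedo replicate 2.

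Falling genes had no single course. Between heart and late bent, 300 of them (29.8%) rose and 255 (25.3%) fell, against 16.6% and 15.4% of all tested genes. Their median log2 change, 0.31, was that of all tested genes. The median falling gene had 163, 134, 113, 97.0, 439, 55.7, 91.1 and 203 normalized reads in seed coat from zygote to mature. By the stage of the highest seed coat mean, 535 (53.1%) of the 1008 were at torpedo, where 10.8% of all tested genes were and which the choice of the genes favours. The 252 falling genes (25%) with their peak at mature were a smaller share than the 29.5% of all tested genes. In whole seed, 61 (6.05%) were highest at torpedo and 326 (32.3%) at heart, against 10.7% and 5.53% of all tested genes. At heart the median falling gene had 285 normalized reads in whole seed, against 97.0 in seed coat and 80.3 in embryo. For all tested genes these medians were 97.5, 88.8 and 64.7.

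The 255 falling genes that were lower at late bent than at heart were low from early bent on. The choice of the genes favours this up to late bent. Their median was 326 at zygote, 340 at quadrant, 248 at globular, 210 at heart, 299 at torpedo, 51.2 at early bent, 21 at late bent and 28.2 at mature. By library, it was 56.7 and 41.1 at early bent, against 181 and 390 at torpedo. Whole seed gave 61.9 and 71.1 at early bent, against 202 and 209 at torpedo, and 146 of the genes (57.3%) also fell there. Of these genes, 151 were lower in seed coat than in embryo at late bent, against 16.6% of all tested genes, a call that their choice by a low late bent level favours, and 86 (33.7%) kept their call without torpedo replicate 2.

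The 300 falling genes that were higher at late bent than at heart had their high torpedo level mostly in replicate 2. Their median was 67.1 at globular, 49.2 at heart, 757 at torpedo, 77.9 at early bent, 455 at late bent and 1070 at mature. By library, it was 76.5 and 80.2 normalized reads at early bent, against 281 and 1236 at torpedo, while seed coat at heart had 49.9 and 46.4. In whole seed the medians were 341 and 293 at heart, 126 and 263 at torpedo and 92.8 and 74.4 at early bent, and 29 of these genes (9.67%) were called lower there in the step. Without torpedo replicate 2, 38 of them (12.7%) kept their call. In whole seed at mature the median was 346. What sets torpedo seed coat replicate 2 apart was not tested.

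Between late bent and mature, 3.79% of all tested genes rose and 4.57% fell. Of the genes that rose in the step 24 (2.14%) rose and 386 (34.4%) fell, and of those that fell in it 215 (21.3%) rose and 28 (2.78%) fell. Between zygote and heart, 1.95% of tested genes rose and 1.86% fell. Of the rising genes 111 (9.88%) had already risen there, and of the falling genes 112 (11.1%) had already fallen. The neighbouring seed coat steps share libraries with the step itself, so their values are only set beside it. Between heart and torpedo (8.10% of tested genes higher and 6.28% lower, that is 2385 and 1849, or 1900 and 2720 with TMM and 1931 and 2516 with quantile scaling), 95 rising genes were higher and 226 lower, and 614 falling genes were higher and 22 lower. Over all genes this step had 4921 higher and 3490 lower genes without torpedo replicate 1, and 511 and 136 without torpedo replicate 2. Between early bent and late bent (8.48% higher, 9.56% lower), 269 rising genes were higher and 266 lower, and 270 falling genes were higher and 84 lower.

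Seed coat and embryo were also compared with each other before and after the step. Against the embryo at heart, 391 of the rising genes (34.8%) were higher in seed coat and 133 (11.8%) lower. Of all tested genes 14.2% were higher and 10.3% lower there. At late bent, 685 of the rising genes (61.0%) were higher in seed coat and 130 (11.6%) lower. Of all tested genes 18.7% were higher and 16.6% lower at that stage. The falling genes were divided at both stages, with 237 higher and 221 lower at heart and 283 higher and 292 lower at late bent.

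**Figure D4:**
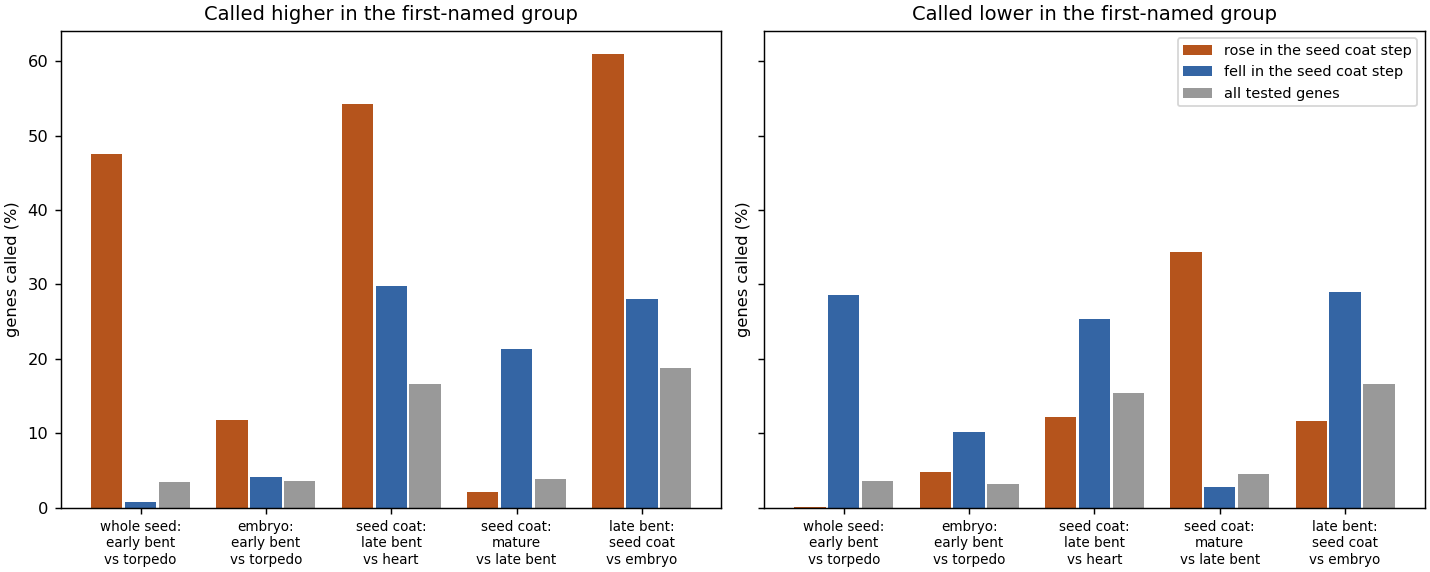
Share of genes called higher (left) and lower (right) in the first-named group of 5 comparisons that share no library with the seed coat step, for genes that rose in the step (orange), genes that fell in it (blue) and all 29440 tested genes (grey). Orange stands above grey on the left for whole seed (47.5% against 3.37%) and for seed coat against embryo at late bent (61.0% against 18.7%).

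RNA of the embryo left on a seed coat would appear in genes typical of the embryo. A list of 31 genes with high levels in embryo and under 2% of them in seed coat, at heart and at late bent, held 0.0115% and 0.0367% of reads in the early bent seed coat, against 0.00794% and 0.00657% in the torpedo seed coat. In embryo the same genes held 11% and 11.8% at early bent, against 5.31% and 5.83% at torpedo. All 31 had reads in each of the 4 seed coat libraries, 25 had a positive log2 change with a median of 1.07, and 5 were among the genes that rose. Of all 29440 tested genes, 16986 had a positive change, the median was 0.12 and 3.81% rose. The matching list of 72 seed coat genes held 5.62% and 7.59% at early bent, against 3.57% and 3.21% at torpedo, with a median log2 change of 1.11, and 16 of its genes rose and 1 fell. Whether traces of embryo RNA take part in the 5 rising genes of the first list was not tested. No list was drawn for endosperm.

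The gene with the largest fold among the rising genes was Lcu.2RBY.1g059080. It had 4124 and 14523 normalized reads in seed coat at early bent, against 8.85 and 1.65 at torpedo, where these came from 12 and 2 reads. Both seed coat heart libraries were at 0, both late bent libraries were higher still, with 70023 and 98659, and the mature libraries had 25.7 and 9.80. The gene was thus near 0 until torpedo, abundant for 2 stages and scarce at maturity. Its log2 change in the step was 10.56 (SE 0.65, adjusted p = 3.18e-12 by limma with Benjamini-Hochberg adjustment). In whole seed it had 14598 and 6669 normalized reads at early bent, against 16.0 and 20.3 at torpedo, a log2 change of 9.02 (adjusted p = 1.22e-10 by limma). Embryo had 4.03 and 13.5 at early bent, against 0 and 0.978 at torpedo, and the seed coat step exceeded the embryo step by 7.96 (SE 0.93, adjusted p = 1.8e-06 by limma).

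The rising gene with the largest difference in reads was Lcu.2RBY.5g065600. It had 196362 and 523433 normalized reads in seed coat at early bent, against 28071 and 21362 at torpedo. Its log2 change was 3.71 (SE 0.85, adjusted p = 0.00453 by limma), and the libraries of the 2 stages lay far apart. It was present before the step, with 6959 and 10008 normalized reads at heart. At late bent the replicates disagreed, with 125695 and 2719, and at mature it had 263 and 216. In whole seed it had 464092 and 333734 at early bent, against 24866 and 30801 at torpedo (log2 change 3.83, adjusted p = 0.0033 by limma), and in embryo at most 407 at early bent and 283 at torpedo. The adjusted p by limma was 0.124 without early bent replicate 2 and 0.0789 without torpedo replicate 2.

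The falling gene with the largest fold was Lcu.2RBY.5g059330. It had 2.54 and 12.4 normalized reads in seed coat at early bent, from 3 and 13 reads, against 7774 and 17353 at torpedo. Seed coat at heart had 7.67 and 4.88 and seed coat at late bent 11 and 14, so the high level was seen at torpedo in both replicates and at neither neighbouring stage. The log2 change was -10.72 (SE 1.37, adjusted p = 4.15e-06 by limma). In whole seed it was high 1 stage earlier as well, with 2363 and 2961 at heart, 251 and 3297 at torpedo and 1.07 and 5.55 at early bent, and its fall there was -7.95 on the log2 scale (adjusted p = 0.000231 by limma). The step in seed coat minus that in embryo was -7.35 (SE 1.93, adjusted p = 0.0191 by limma). It kept its call in all 4 fits with a library left out.

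The falling gene with the largest difference in reads was Lcu.2RBY.7g073370, and here torpedo replicate 2 decided the value. It had 15978 and 17130 normalized reads in seed coat at early bent, against 27443 and 191365 at torpedo. Its log2 change was -2.13 (SE 0.53, adjusted p = 0.00814 by limma), and -0.73 without torpedo replicate 2 (adjusted p = 0.641 by limma). Without early bent replicate 1 or early bent replicate 2 the adjusted p by limma was 0.0518 and 0.0673. The SE and p-values rest on the spread over all 25 groups, while the torpedo replicates of this gene lie far apart. Seed coat had 7169 and 7280 at heart, 69360 and 82229 at late bent and, once mature, 123726 and 93305, so torpedo replicate 2 was above every other seed coat library. In whole seed it had 21481 and 13781 at early bent, against 20697 and 38565 at torpedo, groups that overlap (log2 change -0.72, adjusted p = 0.524 by limma).

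**Figure D5:**
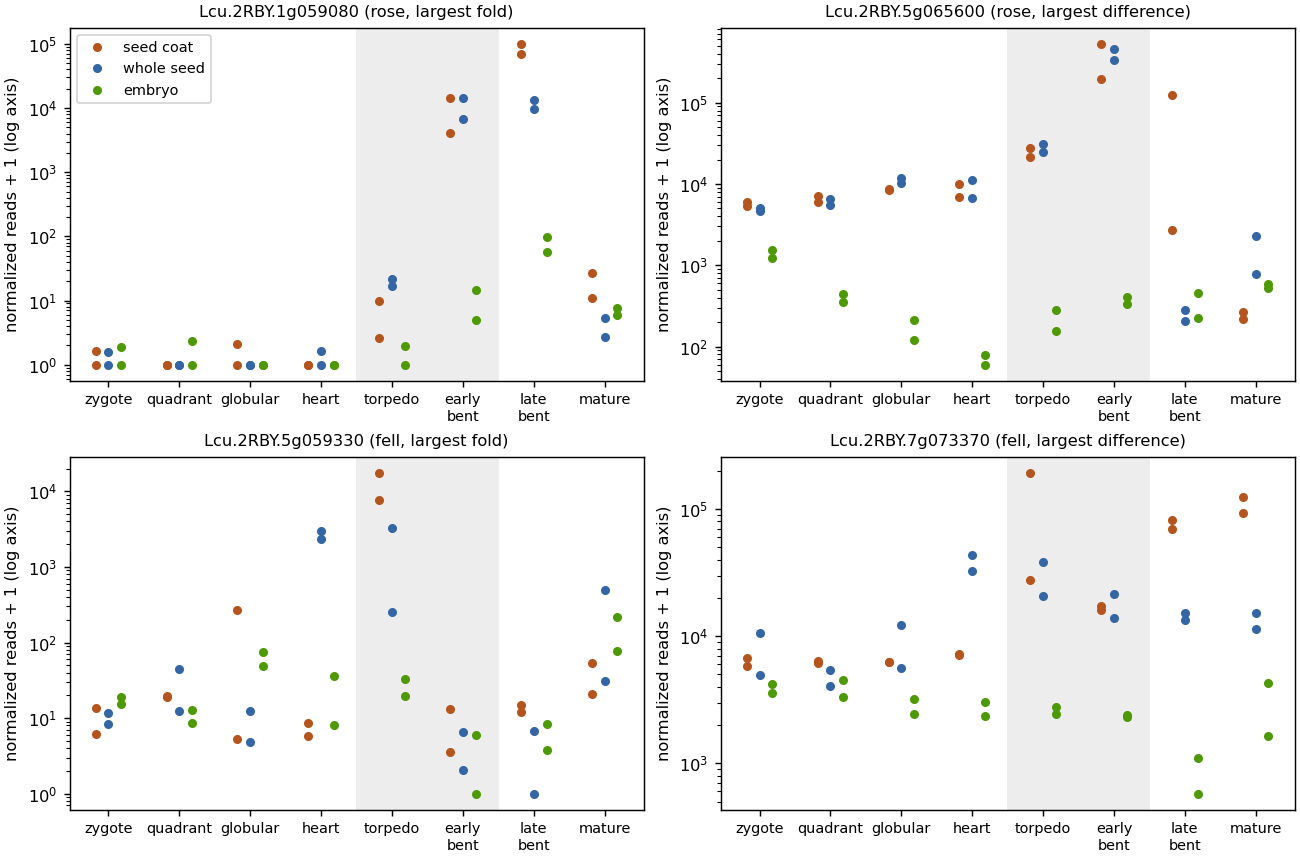
Normalized reads plus 1 on a log axis for the 4 genes with the largest fold and the largest difference in each direction, over 8 stages, with 1 point per library of seed coat (orange), whole seed (blue) and embryo (green). Seed coat torpedo points of Lcu.2RBY.7g073370 lie at 27443 and 191365, against 15978 and 17130 at early bent. Those of Lcu.2RBY.5g059330 lie at 7774 and 17353, against 2.54 and 12.4 at early bent.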

How the data were processed

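Per the labels' protocols, the library kit was one for low input, which amplifies the RNA. CASAVA, Trimmomatic, featureCounts and DESeq2 are named in the submitters' processing notes, with no version and no step assigned to any of them. For the aligner, the build and the strand setting the sources used here give nothing, so reads of antisense partners or near-identical copies cannot be told apart. The deposited values are a signal per gene, equal to read counts divided by 1 factor per library, and are called normalized reads. Multiplying by these factors gave whole reads for 100% of values (tolerance 0.001 reads), with factors equal to those of the DESeq2 median-of-ratios method. All 50 libraries held 13019472 to 35634980 reads. Reads after amplification are not independent molecules.

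Log2(normalized reads + 1), a scale that understates the change of low genes, was fitted with limma 3.58.1 under R 4.3.3, using the trend and robust settings, 1 coefficient for each of 25 groups and 25 residual degrees of freedom. Tested were the 29440 of 58243 genes that reached 10 normalized reads in 2 or more libraries. Differences between steps were tested as interaction contrasts of the same fit. The script was tested on simulated data. Nothing says that replicates came from separate plants. A p-value or SE thus reflects only how far replicates spread over all 25 groups, not in the compared libraries alone, and that spread may be technical. The named genes are, in each direction, the one with the largest fold and the one with the largest difference in mean normalized reads, taken from called genes whose higher group had 100 or more normalized reads in both libraries. Embryo-typical genes had a mean of at least 1000 normalized reads in embryo at heart and at late bent and under 2% of that in seed coat, and seed coat-typical genes the reverse. The comparison, the lists and the tests were chosen with earlier results of these data known. Alternatives were pseudocounts of 0.5 and 8, other filters, TMM and quantile scaling, library weights, a replicate block, other sources of the spread, other call rules, each library left out, and 2 count tests on the recovered reads, the quasi-likelihood test of edgeR 4.0.16 and the Wald test of DESeq2 1.42.0. Chosen after seeing the data were TMM and quantile scaling of the comparisons of mature with late bent, of heart with zygote, of seed coat with embryo, of the neighbouring steps and of the difference from whole seed, and the fits with a library left out for the neighbouring steps and for the difference from whole seed.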

Additional observations from a re-analysis of the deposited data

Results flagged for a closer look

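The seed coat step and the embryo step were compared by an interaction contrast in limma. The signed log2 change was higher in seed coat for 890 genes and lower for 832. In the same test against whole seed, the signed change was higher in seed coat for 9 genes and lower for 66. Among the named genes, the log2 change of Lcu.2RBY.1g059080 was greater by 7.96 in seed coat than in embryo. That of Lcu.2RBY.5g059330 differed by -7.35 between seed coat and embryo. No group here has the 4 libraries that a test for single outlying values needs.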

How the results depend on the processing

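The counts changed with single libraries, and 2 libraries per group leave the spread to be taken from other groups. Over the fits with 1 library left out, the seed coat step had 415 to 2401 rising and 248 to 2244 falling genes, the whole seed step 471 to 1048 and 350 to 1027, and the embryo step 545 to 936 and 449 to 809. The step from heart to torpedo had 511 to 4921 rising and 136 to 3490 falling genes. The seed coat step was greater than in embryo for 441 to 2053 genes and smaller for 423 to 1680, and greater than in whole seed for 4 to 1482 and smaller for 26 to 948. Genes with the same call in seed coat and whole seed numbered 281 to 570 for rising and 155 to 373 for falling genes. With library weights per group, which were 0.685 for early bent and 0.319 for torpedo, 387 genes rose and 264 fell, 298 and 142 of them also in whole seed, and the difference from embryo held for 340 and 329. With the spread taken from the 4 compared libraries alone, 0 genes rose and 0 fell by limma, with 2450 at an unadjusted p under 0.05. With replicate 2 of both groups left out, 130 rose and 94 fell, 105 and 55 of them also in whole seed. A fold of at least 4 left 632 and 598 genes, 332 of the rising ones shared with whole seed, and a 2-fold gap between libraries left 620 and 558. At least 100 normalized reads in both higher libraries left 666 falling genes, 172 of them shared with whole seed. Quantile scaling gave 35 and 159 genes for the difference from whole seed.

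The balance of rising and falling genes depended on the scaling: rising genes were 52.7% of calls, 50.9% with TMM and 47.7% with quantile scaling, with 1245 rising and 1363 falling genes. The median log2 change of all tested genes was 0.12, 0.11 and 0.02 in these fits. edgeR called 1066 rising and 1275 falling genes, and DESeq2 1230 and 1411. The causes were not tested. The log2 change of Lcu.2RBY.1g059080 ran from 8.71 to 11.55 and that of Lcu.2RBY.5g059330 from -12.40 to -9.63 over the alternatives. With a replicate block, 1112 genes rose and 999 fell. The differences between replicates correlated at 0.363 between early bent and torpedo seed coat. Over 300 pairs of groups this ran from -0.466 to 0.536, with 59 pairs over 0.1. Such a range cannot tell whether replicates of the same number share something in these 2 groups, and the block is a single term over all groups. A pairing within the step was not tested.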
